A study of Xenopus laevis with 27 samples.

Results

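Cell cycle and DNA replication genes were taken from the gene names of the deposited tables. A gene was included if its name, with the copy suffix removed, began with that of a cyclin of the A, B, D or E type, a cyclin-dependent kinase or its inhibitor, a CDC25 phosphatase, an origin or fork protein, an E2F factor or a mitotic kinase, spindle or checkpoint gene of a fixed list. The choice rested on names alone and found 130 of 42903 genes. Xenopus laevis is an allotetraploid frog, so most of these genes have a copy on the long chromosomes (suffix .L) and a copy on the short ones (suffix .S), and each copy was counted as a gene of its own. The names cdc25a.L and pcna.L each stand for 2 gene entries, and 9 of the 130 matched by their letters only and have other functions (for example mcm3ap.L and the PAF1 complex genes cdc73.L and cdc73.S).

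The study fitted adult Xenopus laevis with a wearable bioreactor on an amputated hindlimb and sequenced bulk RNA of 3 tissues: the blastema, which is the outgrowth at the cut end, the stump behind it, and the brain. In each tissue 3 libraries came from frogs treated with progesterone in the device, 3 from frogs with the silk device alone (the sham group) and 3 from frogs with no device. The labels used here carry no strain, age, sex or time of sampling, and do not tie libraries to individual frogs, within a group or across tissues. The p-values therefore measure only the spread between these samples, which may be technical.

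Cells enter the cycle when D-type cyclins with CDK4 or CDK6, and then cyclin E with CDK2, release the E2F factors from the retinoblastoma proteins, and the CDK inhibitors of the INK4 family (cdkn2 genes) and the CIP/KIP family (cdkn1 genes) oppose these kinases. Origins are licensed by ORC, CDC6, CDT1 and the MCM helicase, are fired with CDC7, CDC45 and GINS, and are copied with PCNA on nucleotides made by ribonucleotide reductase; CDC25 phosphatases then activate CDK1 with cyclins A and B for mitosis. Proliferating blastema cells are the source of new limb tissue in amphibians, and most neurons of the adult brain no longer divide.

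All levels are FPKM (reads per length of gene and per sequencing depth, the authors' scale), which is corrected for gene length. These libraries were shallow, from 178774 estimated reads in progesterone blastema 2 to 3454337 in stump 1 without a device. A read in a gene of 1 kb was therefore worth 0.290 to 5.58 FPKM, depending on the library. A single gene, smad4.1.S, took 22.1% to 39.2% of the reads in silk blastema, 31.1% and 20.6% in silk stump 2 and 1, 25.6% in progesterone blastema 2, 15.9% in progesterone stump 1 and 11.5% and 10.1% in silk brain 1 and 2. In the other libraries it took 0.0516% to 4.003%. In progesterone blastema, stump without a device and brain without a device, libraries 1 and 3 were near-identical, as fewer than 1% of genes differed between them beyond sampling noise; each such pair was averaged and counted as 1 sample (n = 2 there, n = 3 elsewhere). Library 3 of silk brain was near-identical to libraries 1 and 3 of brain without a device; it was kept in its labelled group, and results that turn on it are also given without it. Neuron markers fitted the tissue labels: 10 neuron genes summed to 1727 to 2361 FPKM in brain and to 4.05 to 180.2 FPKM in the limb libraries. Epidermis markers did not separate the tissues: 9 genes had median sums of 136.2 FPKM in brain, 96.9 FPKM in blastema and 123.5 FPKM in stump. Skeletal muscle genes, 9 in number, summed to 14.8 to 270 FPKM in brain, with the highest sum in silk brain 1. Within the limb these muscle genes moved with the devices. They summed to 3085 to 20951 FPKM in progesterone stump and 3554 to 8617 FPKM in silk stump, against 38942 to 60258 FPKM in stump without a device.

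The cell cycle genes rested on few reads in these shallow libraries. Their median level, as a median over the libraries of a tissue, was 2.08 FPKM in blastema, 1.16 in stump and 0.945 in brain. For all genes it was 2.6, 1.03 and 1.96 FPKM, so members lay below all genes in brain and blastema but not in stump. In every group a smaller share of members than of all genes was listed at 0 in all libraries (11.5% against 21.1% in silk brain). The median member had 3.43 estimated reads per library, 110 of the 130 averaged under 10 reads, and 33 were listed at 0 in 9 or more of the 27 libraries. Together the 130 genes took from 0.0344% of reads in a stump library without a device to 0.146% in silk stump 3. The B-type cyclin copies ranged widely: ccnb1.L was listed at 0 in 23 libraries, ccnb5.L in 22, ccnb2.S in 18, ccnb2.L in 17, ccnb1.2.L and ccnb3.S in 13 each, ccnb1.2.S in 8 and ccnb3.L in 3. The list holds no gene named top2a, cdkn1c or mad2l1.

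**Figure D1:**
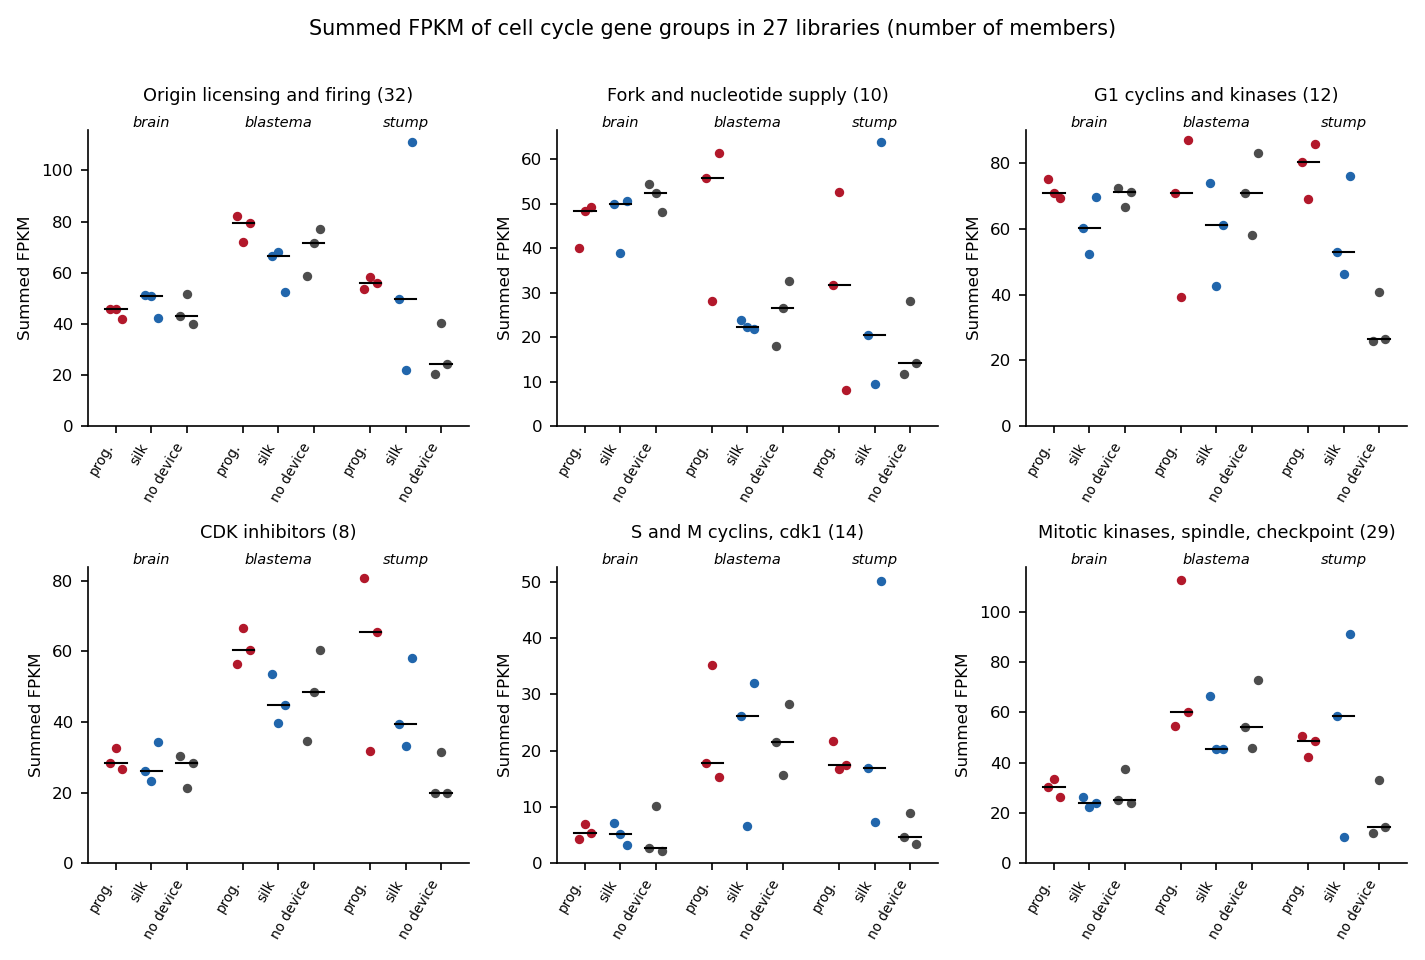
Summed FPKM of the members of 6 functional classes in each of the 27 libraries, by tissue and treatment; points are libraries and bars are medians of the 3 libraries of a group. The S and M cyclins with cdk1 summed to 2.28 to 10.1 FPKM over the brain libraries, 6.67 to 35.2 FPKM over those of blastema and 3.37 to 50.2 FPKM over those of stump, and the progesterone stump libraries (16.8 to 21.7 FPKM) lay above the stump libraries without a device (3.37 to 9.02 FPKM). The median level of all genes was separated in the same way, at 1.03 to 2.43 FPKM against 0.44 to 0.86 FPKM.

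The 3 tissues were compared by the mean of their 3 treatment groups, with 8 samples per tissue, a contrast that was added after the data had been seen. The 8 brain samples include silk library 3, near-identical to the averaged brain pair without a device. Brain means, spreads and tests below count it as a separate sample, so they may overstate the number of independent samples. The leave-out counts below include a fit without it. Differences are of log2(FPKM + 1), from a limma fit across all 9 groups, and a gene was called at a Benjamini-Hochberg adjusted p under 0.05 over all 42326 genes tested. In brain relative to blastema, 5 of 130 members were higher, where 24.4% of all genes tested were called higher, and 33 were lower, where 25.3% were called lower. The share of members that were lower was thus 25.4%, close to that of all genes. The median difference of the members was -0.44, and that of all genes was -0.22. In brain relative to stump, 9 members were higher and 9 were lower, against 26.7% and 9.73% of all genes. In blastema relative to stump, 4 members were higher and none was lower, against 6.6% and 1.03% of all genes, and the members' median of 0.24 lay below the 0.36 of all genes. Leaving out each sample in turn moved this last count between 0 (without progesterone blastema 2, or without the averaged stump pair without a device) and 14 (without the averaged progesterone blastema pair), with 13 without silk stump 3, 9 without silk blastema 3, 1 without stump 2 without a device, and 2 without progesterone stump 2 or 3 or blastema 2 or 3 without a device. The counts in brain ran from 25 (without the averaged brain pair without a device) to 46 against blastema, and from 10 (without stump 2 without a device) to 25 against stump. The shares of all genes in these leave-out fits are not given, so the counts show only how the calls depend on single samples. With each library scaled by the median of ratios, brain against stump had 5 higher and 19 lower members, where 19.1% and 14.1% of all genes were. In bulk tissue, fewer cells of a type and less RNA per cell cannot be told apart.

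**Figure D2:**
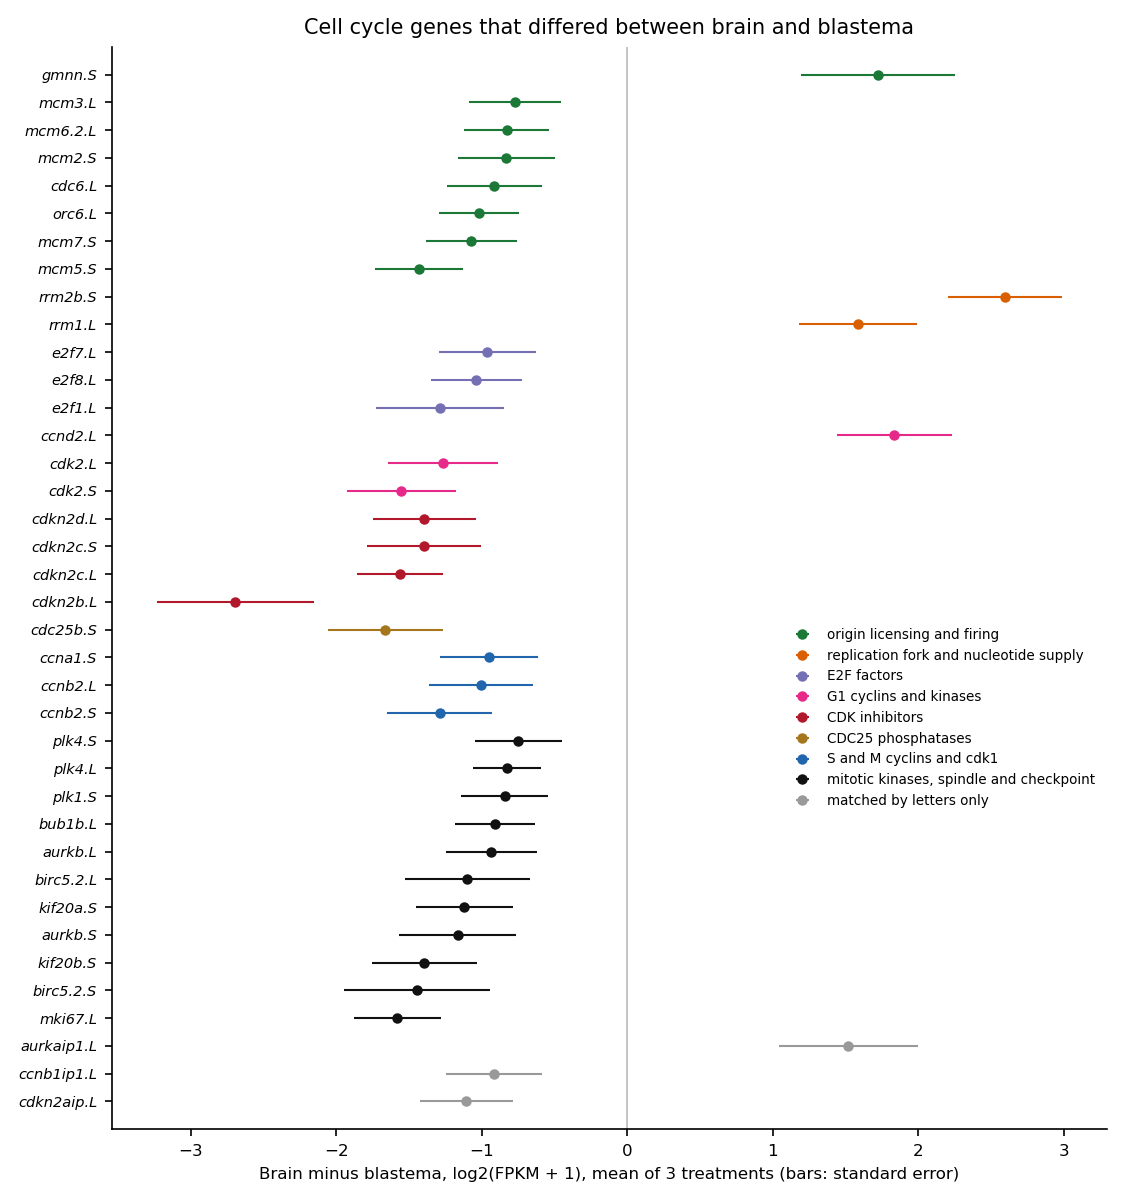
The 38 members called between brain and blastema (limma, adjusted p under 0.05), as the difference of log2(FPKM + 1), brain minus blastema, with its standard error, grouped by role. The 33 lower genes include 11 of 29 mitotic genes, 7 of 32 origin genes and 4 of 8 CDK inhibitors, and the 5 higher ones include ccnd2.L, rrm2b.S and rrm1.L. Of all genes tested, 25.3% were called lower and 24.4% higher, against 25.4% and 3.85% of the members.

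Among the G1 cyclins and kinases, the D-type cyclin ccnd2 was the most abundant member in each tissue. The long copy, ccnd2.L, averaged 25.9 ± 5.14 FPKM in brain, 9.40 ± 5.76 FPKM in blastema and 9.48 ± 4.69 FPKM in stump (SD, n = 8 each). Brain samples had 17.1 to 32.2 FPKM with a median of 26.3, blastema samples 0 to 18.1 with a median of 8.96, and stump samples 2.23 to 17.8 with a median of 9.31. The brain samples overlapped with only the top of the limb range, and ccnd2.L was higher in brain than in blastema by 1.83 ± 0.40 (SE; limma adjusted p = 0.000785) and than in stump by 1.61 ± 0.40 (limma adjusted p = 0.00268; lost with a pseudocount of 0.1, at 0.0546). The short copy, ccnd2.S, averaged 21.4 FPKM in brain, 24.8 FPKM in blastema and 22.8 FPKM in stump (5.24 to 40.5 FPKM in blastema and 9.13 to 41.5 FPKM in stump), and these ranges overlapped throughout. Of the kinases, both copies of cdk2, the partner of cyclin E, were lower in brain than in blastema, cdk2.S by -1.55 ± 0.37 (limma adjusted p = 0.00192) and cdk2.L by -1.27. The cyclin D1 copy ccnd1.S had medians of 3.78 FPKM in brain, 3.67 FPKM in blastema and 4.51 FPKM in stump. In the same order, the kinase genes had medians of 3.67, 6.47 and 5.39 FPKM for cdk4.L and 2.84, 2.83 and 3.61 FPKM for cdk6.L. These medians hide some spread, as cdk6.L was listed at 0 in every silk blastema library.

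CDK inhibitors differed in opposite directions between tissues. The INK4 gene cdkn2b.L had 0 to 0.58 FPKM in brain with a median of 0, 0 to 14.02 FPKM in blastema with a median of 8.19, and 0 to 12.9 FPKM in stump with a median of 2.01. It was lower in brain than in blastema by -2.69 ± 0.54 (limma adjusted p = 0.000380) and than in stump by -1.43 ± 0.54 (limma adjusted p = 0.0417), although single limb samples were also listed at 0. Of the other INK4 genes, cdkn2c.L (-1.56 ± 0.30), cdkn2c.S (-1.40 ± 0.39) and cdkn2d.L (-1.40 ± 0.36) were also lower in brain than in blastema. The short copy cdkn2d.S had 6.39 to 12.3 FPKM in brain, 4.17 to 7.68 FPKM in blastema and 0.690 to 6.97 FPKM in stump, with medians of 8.21, 5.38 and 2.90. Its brain samples overlapped little with those of stump, and it was higher in brain than in stump by 1.34 ± 0.26 (limma adjusted p = 0.000280). The long copy cdkn2d.L was higher in blastema than in stump by 1.26 ± 0.36 (limma adjusted p = 0.0369). The CIP/KIP gene cdkn1a.L, a target of p53 in vertebrates, was lower in brain than in stump by -1.27 ± 0.45 (limma adjusted p = 0.0302). The calls of cdkn2b.L and cdkn1a.L in brain against stump and of cdkn2d.L in blastema against stump were each lost under several alternatives, among them leaving out stump 2 without a device, with limma adjusted p up to 0.135, 0.156 and 0.166.

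**Figure D3:**
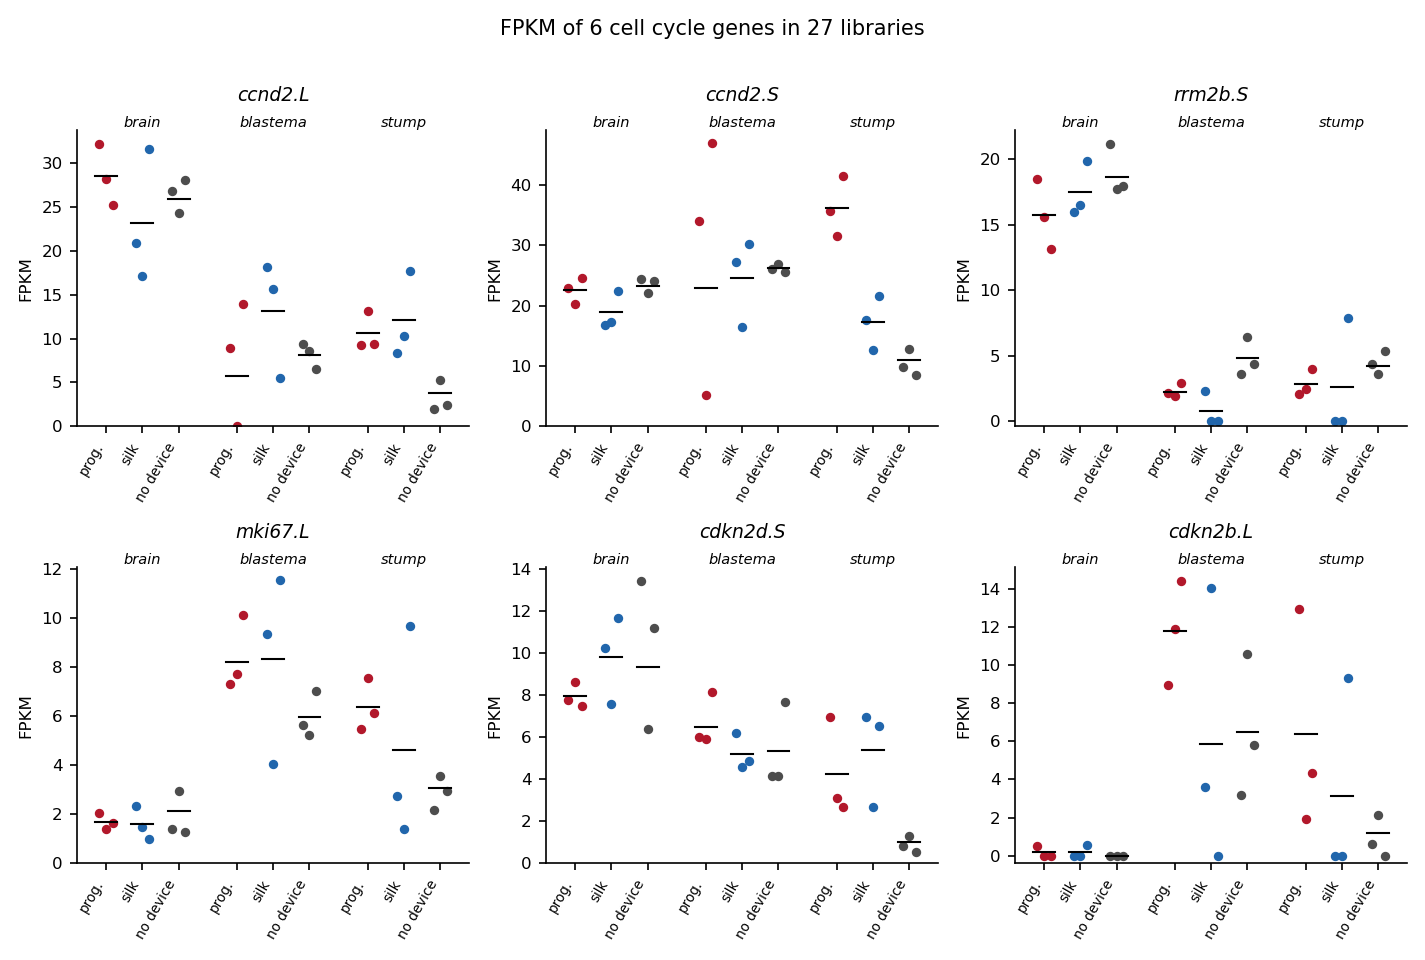
FPKM of ccnd2.L, ccnd2.S, rrm2b.S, mki67.L, cdkn2d.S and cdkn2b.L in each of the 27 libraries, by tissue and treatment; points are libraries and bars are group means with near-identical libraries averaged first. Brain stands above the limb for rrm2b.S and below blastema for mki67.L, and cdkn2b.L is listed at 0 in most brain libraries.

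Of 32 origin genes, 7 were lower in brain than in blastema and 1 was higher, against 25.3% and 24.4% of all genes, so the share that was lower lay near that of all genes. The helicase subunit mcm5.S had 0 to 0.730 FPKM in brain and 0 to 6.18 FPKM in blastema, with a blastema median of 2.76, and it was lower in brain by -1.43 ± 0.30 (limma adjusted p = 0.000645). Of the other helicase copies followed in every tissue, mcm2.S (-0.83 ± 0.33, limma adjusted p = 0.0438) and mcm6.2.L (-0.83 ± 0.29, limma adjusted p = 0.0237) were lower too. The rest of that panel, mcm2.L, mcm5.L, mcm6.L and mcm6.2.S, had brain medians of 0.395 to 0.585 FPKM and blastema medians of 1.40 to 1.82 FPKM without passing the threshold. Outside that panel, mcm7.S was also lower in brain (highest limma adjusted p = 0.0359 under the alternatives). The origin recognition subunit orc6.L was lower in brain than in blastema by -1.02 ± 0.27 and higher in blastema than in stump by 1.16 ± 0.27 (limma adjusted p = 0.00473 and 0.0167). The call against stump was lost without progesterone blastema 2 (limma adjusted p = 0.0726) and in both fits that left out a stump sample without a device. The single higher gene was gmnn.S, which encodes geminin, the inhibitor of CDT1 that blocks a further round of licensing. It had 4.5 to 8.98 FPKM in brain, 0 to 7.75 FPKM in blastema and 0 to 6.09 FPKM in stump.

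Of the 10 fork and nucleotide genes, none was lower in brain than in blastema and 2 were higher, against 25.3% and 24.4% of all genes, and both encode subunits of ribonucleotide reductase. The gene rrm2b.S, whose mammalian counterpart encodes the p53-inducible small subunit used outside S phase, had 13.2 to 19.9 FPKM in brain with a median of 17.1, 0 to 6.42 FPKM in blastema with a median of 2.43, and 0 to 7.84 FPKM in stump with a median of 3.02. All brain samples lay above all limb samples. It was higher in brain than in blastema by 2.59 ± 0.39 and than in stump by 2.41 ± 0.39 (limma adjusted p = 1.73e-05 and 3.80e-05). The large subunit rrm1.L was higher by 1.58 ± 0.40 and 1.35 ± 0.40 in the same comparisons, and its call against stump was lost with a pseudocount of 0.1 and with median-of-ratios scaling (highest limma adjusted p = 0.0795). The clamp gene pcna.L had medians of 6.25 and 8.09 FPKM in brain, 3.55 and 4.89 FPKM in blastema and 3.94 and 9.02 FPKM in stump for its entries gene50055 and gene6760, and the ranges overlapped. Among the copies of the S phase small subunit, rrm2.1.L was listed at 0 in 20 of 27 libraries. The copy rrm2.2.L averaged 1.90 FPKM in progesterone stump and 1.58 FPKM in silk stump. Over all 130 members, 2 had every brain sample above every limb sample (rrm2b.S and mcm3ap.L, which matched by letters only) and none had every brain sample below, where 11.5% and 1.51% of all genes did so; this count was also added after the data had been seen.

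Of the mitotic genes, 11 of 29 were lower in brain than in blastema and none was higher, against 25.3% and 24.4% of all genes. The proliferation marker mki67.L had 1.00 to 2.96 FPKM in brain with a median of 1.55, 4.07 to 11.6 FPKM in blastema with a median of 7.37, and 1.41 to 9.66 FPKM in stump with a median of 4.51. Brain and blastema samples did not overlap, and the stump samples overlapped with both. The difference was -1.58 ± 0.30 between brain and blastema (limma adjusted p = 0.000199) and -0.90 ± 0.30 between brain and stump (limma adjusted p = 0.0202), and the second call was lost without the averaged brain pair without a device (limma adjusted p = 0.0846) and without stump 2 without a device. The second copy, mki67.S, had a median of 3.4 FPKM in brain, 3.20 FPKM in blastema and 2.67 FPKM in stump, with ranges that overlapped throughout. The kinesin genes kif20b.S (-1.40 ± 0.36) and kif20a.S (-1.12), the centriole kinase plk4.L, the mitotic kinase plk1.S (-0.84 ± 0.30) and the cyclin ccnb2.S (-1.29 ± 0.36) were also lower in brain than in blastema. The call of kif20a.S was not kept under all alternatives (highest limma adjusted p = 0.0591). The cyclin-dependent kinase of mitosis, cdk1.L, had medians of 0.76 FPKM in brain, 2.09 FPKM in blastema and 3.85 FPKM in stump, and was lower in brain than in stump by -1.50 ± 0.45 (limma adjusted p = 0.0123; lost without stump 2 without a device, at 0.0603). The aurora kinase gene aurka.S had medians of 0.745, 1.33 and 0.98 FPKM in the same order of tissues, and the cyclin gene ccna2.L of 0, 1.80 and 1.1 FPKM. The phosphatase cdc25b.S was lower in brain than in blastema by -1.66 ± 0.40 and than in stump by -1.38 ± 0.40 (limma adjusted p = 0.00179 and 0.00843). Among the E2F factors, the activator e2f1.L had 0 to 1.05 FPKM in brain and 0 to 6.41 FPKM in blastema, with medians of 0.24 and 3.06 FPKM, and was lower in brain by -1.29 ± 0.44 (limma adjusted p = 0.0202). The factor e2f6.S, a repressor that lacks the domain that binds retinoblastoma proteins, was higher in brain than in stump by 1.25 ± 0.30 and in blastema than in stump by 1.05 ± 0.30 (limma adjusted p = 0.00235 and 0.0393); the second of these calls was lost in several of the fits that left out 1 sample.

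In frogs with no device, where no treatment is involved, no member was called between blastema and stump, against 3.77% of all genes called higher and 0.307% lower, and the nearest was cdkn2d.S at 1.64 ± 0.46 (limma adjusted p = 0.0501). Its levels there were 4.18, 4.17 and 7.68 FPKM in blastema, against 0.840, 1.31 and 0.540 FPKM in stump, with no overlap. In the same frogs 3 members were higher in brain than in stump, where 15.2% of all genes were called higher and 2.19% lower. These were cdkn2d.S (2.33 ± 0.51, limma adjusted p = 0.00226), ccnd2.L (2.57 ± 0.78, limma adjusted p = 0.0244) and e2f6.S (1.90 ± 0.59, limma adjusted p = 0.0299). Each of these calls was lost without the averaged brain pair without a device, and those of ccnd2.L and e2f6.S also without the other brain sample and without the averaged stump pair (highest limma adjusted p = 0.0587 for cdkn2d.S, 0.234 for ccnd2.L and 0.296 for e2f6.S). Between brain and blastema without a device only cdkn2c.L was called, at -1.60 ± 0.53 (limma adjusted p = 0.0441), where 9.36% of all genes were called higher and 6.45% lower; this call was lost without any 1 of the 3 blastema or 2 brain samples (highest limma adjusted p = 0.222). With progesterone, no member was called between blastema and stump, against 0.0449% and 0.00473% of all genes; at an unadjusted p under 0.05, 10 were higher and 4 lower, against 12.3% and 2.49%. Without the averaged progesterone blastema pair, 5 members were called higher and 6 lower, against 10.5% and 5.36% of all genes; that fit keeps only library 2, the shallowest, in its group and assumes that it varies like the other groups. With the silk device, 2 members were lower in blastema than in stump and none was higher, against 0.295% and 0.151% of all genes; at an unadjusted p under 0.05, 10 were lower and 5 higher, against 6.87% and 4.51%. One of the 2 called members was the G1 kinase gene cdk6.L, listed at 0 in all 3 silk blastema libraries. It had 6.93, 7.10 and 4.15 FPKM in silk stump (limma adjusted p = 0.00776, up to 0.836 under the alternatives). A read in cdk6.L was worth 2.36 to 3.23 FPKM in silk blastema, so its level there rests on depth as well. The other called member, mad2l1bp-like.L, matched by letters only (limma adjusted p = 0.0487, up to 0.937 under the alternatives).

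The question of the study was what the devices did. None of the members passed an adjusted p of 0.05 in any of the 9 treatment comparisons, of 120 tested in blastema, 106 in stump and 68 in brain (limma, fitted within each tissue). The background was as low: 0% of all genes were called in either direction in every comparison except progesterone against silk in brain, where 0.0147% were higher and 0.00736% lower. The values below are therefore levels and their spread, ordered by tissue.

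In stump, members and all genes alike tended to lie higher with a device than without. At an unadjusted p under 0.05, 7 of 106 members were higher with progesterone and none was lower than without a device, where 7.82% and 2.04% of all genes were. With the silk device 8 were higher and none was lower, where 9.8% and 3.19% of all genes were. The median difference of the members was 0.50 for progesterone and 0.46 for silk, below the 0.57 and 0.52 of all genes tested. After scaling each library by the median of ratios, it was 0.10 and 0.09, against 0.11 and 0.10 for all genes. Muscle markers were lower with both devices, as given above, and erythrocyte markers summed to 29129 to 90736 FPKM in progesterone stump and 22652 to 69519 FPKM in silk stump, against 3576 to 5340 FPKM in stump without a device; their part in the members' differences was not tested. With voom weights, 4 of 106 members were called higher with progesterone and none lower, where 4.11% and 0.804% of all genes were, and 15 were called higher with silk and none lower, where 23.4% and 1.63% of all genes were.

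**Figure D4:**
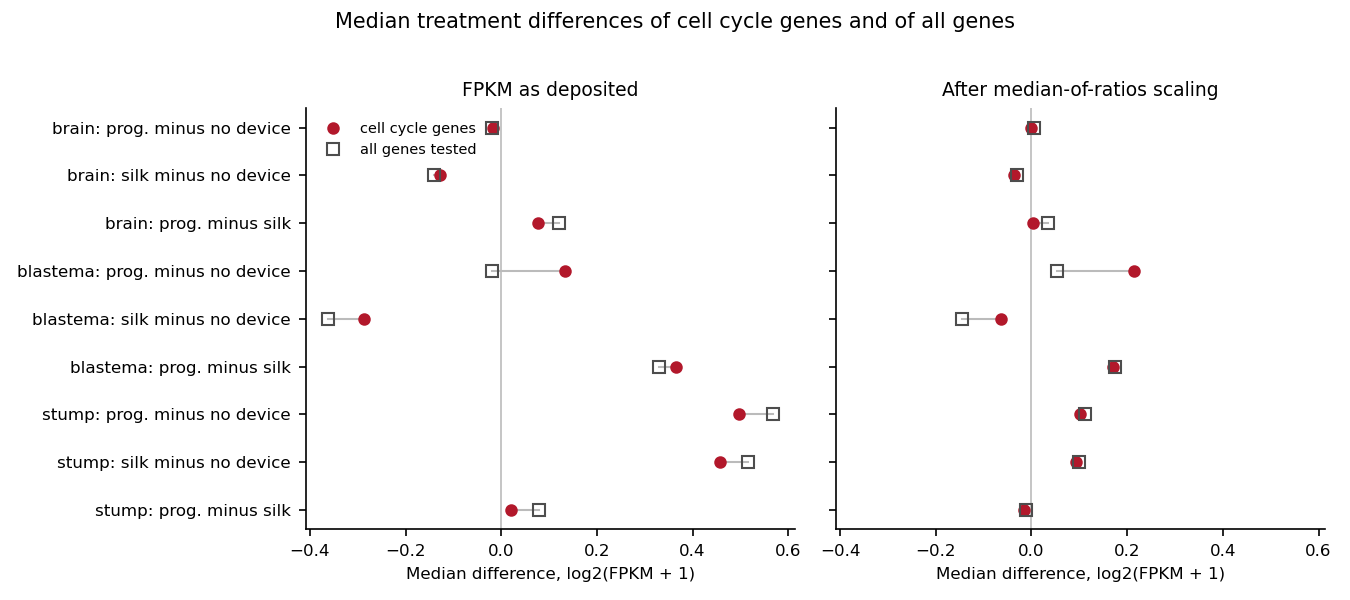
Median difference of log2(FPKM + 1) over the members tested and over all genes tested, in each of the 9 treatment comparisons, on FPKM as deposited and after scaling each library by the median of ratios. In stump and brain the members' medians lie near those of all genes, and the shifts of 0.50 and 0.46 in stump shrink to 0.10 and 0.09 after scaling. For progesterone against no device in blastema they differ in sign, at 0.13 for members and -0.02 for all genes. After scaling these were 0.21 and 0.05.

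Between progesterone and no device in stump, the lowest p-values belonged to the CDC25B phosphatase, which activates cyclin-dependent kinases at entry into mitosis, and to cyclin D2. The gene cdc25b.L had 6.73, 7.23 and 10.1 FPKM with progesterone, 3.65, 3.73 and 5.17 FPKM with silk, and 0.480, 1.65 and 0.950 FPKM without a device. The 3 groups did not overlap, and the differences from no device were 2.06 ± 0.53 with progesterone (limma adjusted p = 0.274) and 1.27 ± 0.53 with silk (limma adjusted p = 0.348). Its other copy, cdc25b.S, had 7.27, 5.49 and 17.0 FPKM with progesterone, 5.43, 1.82 and 3.21 FPKM with silk, and 0.740, 1.36 and 2.45 FPKM without a device. The progesterone libraries lay above all others, but only just above silk (5.49 against 5.43 FPKM). The difference of progesterone from no device was 1.998 ± 0.63 (limma adjusted p = 0.371). Cyclin D2 followed the same order in its short copy. The gene ccnd2.S had 35.6, 31.5 and 41.5 FPKM with progesterone, 17.6, 12.6 and 21.6 FPKM with silk, and 9.82, 12.8 and 8.44 FPKM without a device. Only the silk libraries overlapped with the libraries without a device, and the difference of progesterone from no device was 1.65 ± 0.53 (limma adjusted p = 0.379). The long copy ccnd2.L had 9.29, 13.2 and 9.33 FPKM with progesterone, 8.41, 10.3 and 17.8 FPKM with silk, and 2, 5.32 and 2.45 FPKM without a device, so that both device groups lay above the group without one.

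The inhibitor copies cdkn1b.S and cdkn2d.S and the spindle gene tpx2.S were also among the members of lowest p in stump, with device libraries above those without a device and no fixed order between progesterone and silk. The CIP/KIP gene cdkn1b.S, which encodes p27, had 7.52, 9.47 and 21.6 FPKM with progesterone, 8.78, 20.2 and 8.52 FPKM with silk, and 1.99, 4.07 and 2.74 FPKM without a device. The INK4 gene cdkn2d.S had 6.95, 3.12 and 2.69 FPKM with progesterone, 6.97, 2.68 and 6.56 FPKM with silk, and 0.840, 1.31 and 0.540 FPKM without a device. In both genes every device library lay above every library without a device, and the difference of silk from no device was 1.60 ± 0.65 for cdkn1b.S and 1.62 ± 0.61 for cdkn2d.S (limma adjusted p = 0.33 and 0.297). The spindle assembly factor tpx2.S had 5.42, 2.79 and 9.91 FPKM with progesterone, 7.85, 2.14 and 6.70 FPKM with silk, and 0.490, 1.47 and 0.630 FPKM without a device, and its device libraries lay above those without a device (1.71 ± 0.68 with progesterone and 1.61 ± 0.68 with silk; limma adjusted p = 0.458 and 0.354). The proliferation marker mki67.L was less uniform, with 5.46, 7.55 and 6.11 FPKM with progesterone, 2.76, 1.41 and 9.66 FPKM with silk, and 2.18, 3.57 and 2.96 FPKM without a device. Its progesterone libraries lay above those without a device, and its silk libraries held both the lowest and the highest value of the stump. Silk stump 3 and silk stump 2 also had the highest and the lowest member sum of their group, at 557.8 and 173.8 FPKM. The median level of all genes had the same order, at 3.53 and 0.59 FPKM, against 2.03 FPKM in silk stump 1.

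Between progesterone and silk in stump, 1 of 106 members was higher and 1 lower at an unadjusted p under 0.05, where 1.76% and 2.08% of all genes were. The lower one was the entry named cdc45l, listed at 0 in all progesterone libraries, against 1.76, 1.38 and 2.93 FPKM with silk (limma adjusted p = 0.87). It passed the filter of 1 FPKM in 3 samples through its silk libraries, which favoured a low p-value here. In a gene of 1 kb a read was worth 3.30, 2.54 and 1.46 FPKM in silk stump. The estimated length of cdc45l is 1872 nucleotides, so its silk levels rest on few reads. The higher one was cdkn1a.L, with 25.3, 7.20 and 25.4 FPKM with progesterone, 3.38, 4.86 and 9.93 FPKM with silk, and 8.29, 10.5 and 6.98 FPKM without a device. Progesterone library 2 overlapped with both other groups, and the difference of progesterone from silk was 1.45 ± 0.62 (limma adjusted p = 0.997).

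The authors' own comparisons called more genes in stump. In the authors' deposited table, 8 of 126 members were higher and 3 lower with progesterone than without a device at a q under 0.05, where 8.28% and 7.03% of all genes were. For silk over no device, the authors' deposited table has 15 of 129 members higher and 3 lower, where 18.2% and 8.32% of all genes were. The authors' deposited table has no member past that q in the other 7 treatment comparisons. For progesterone, the authors' deposited table gives a log2 fold change of 2.28 for cdc25b.L (q = 0.000113), 1.77 for cdc25b.S (q = 0.00214) and 1.85 for tpx2.S. For silk, the authors' deposited table gives 1.65 for cdkn2d.S (q = 0.00343), 2.03 for cdkn2d.L and 1.82 for cdkn2c.L. The lower members of the authors' deposited table include cdkn1a.S, at -1.47 with progesterone (q = 0.00446) and -2.17 with silk (q = 0.000126), and rrm2b.S, at -1.69 (q = 0.00111) and -1.44. For cdkn1a.L the authors' deposited table gives -1.33 with silk (q = 0.00924). In FPKM, cdkn1a.S was also lower, by -0.72 ± 0.67 with progesterone and -1.003 ± 0.67 with silk (limma adjusted p = 0.67 and 0.5). The authors' comparisons take the near-identical stump libraries 1 and 3 without a device as separate samples.

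In blastema, 1 of 130 members was listed at 0 in all 3 progesterone libraries, 13 (10% of the members) in all 3 silk libraries and 2 in all 3 without a device. Of all genes, 5.24% were at 0 in all libraries with progesterone, 13.9% with silk and 4.89% without a device, so the members followed all genes. The silk libraries had 219588 to 295442 estimated reads, against 406427 to 672723 without a device; the part of depth was not tested. Muscle markers summed to 1663 to 2577 FPKM with progesterone and 613.4 to 1764 FPKM with silk, against 11527 to 23131 FPKM without a device. Erythrocyte markers summed to 3030 to 63162 FPKM with progesterone and 15847 to 51403 FPKM with silk, against 4214 to 14179 FPKM without a device, and the part of both marker lists in the members' differences was not tested. At an unadjusted p under 0.05, none of 120 members was higher and 10 were lower with silk than without a device, where 1.06% and 6.61% of all genes were, and the members' median of -0.29 lay beside -0.36 for all genes. The kinase gene cdk6.L had 4.42, 3.91 and 5.17 FPKM with progesterone, was listed at 0 in the 3 silk libraries, and had 5.07, 1.74 and 7.24 FPKM without a device. Every silk library lay below every other library, but a read in this gene was worth 2.36 to 3.23 FPKM in silk blastema (limma adjusted p = 0.229 for silk against no device and 0.648 for progesterone against silk). Cyclin A2 (ccna2.S) and the ribonucleotide reductase subunit rrm2.2.L were likewise listed at 0 in the 3 silk libraries, where a read was worth 2.002 to 2.74 FPKM and 2.19 to 2.99 FPKM. The origin gene gins4.L had 6.09, 7.19 and 6.16 FPKM with progesterone, 4.33, 0 and 0 FPKM with silk, and 4.13, 4.96 and 8.18 FPKM without a device. Progesterone and silk did not overlap (2.13 ± 0.82, limma adjusted p = 0.789). The estimated length of gins4.L is 1358 nucleotides. At 1 kb, a read was worth 3.37, 4.38 and 4.60 FPKM in silk blastema and 5.58 FPKM in progesterone library 2. The levels of gins4.L in these libraries therefore rest on few reads.

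Between progesterone blastema and blastema without a device, few members stood apart. At an unadjusted p under 0.05, 1 member was higher and 1 lower, where 1.41% and 2.29% of all genes were, and the medians were 0.13 for the members and -0.02 for all genes. The higher one was the origin firing gene gins2.L, with 5.20, 8.62 and 3.65 FPKM with progesterone, 3.46, 4.51 and 4.54 FPKM with silk, and 1.47, 1.27 and 1.80 FPKM without a device. Both device groups lay above the group without a device, and the difference of progesterone from no device was 1.53 ± 0.60 (limma adjusted p = 0.994). The estimated length of gins2.L is 1310 nucleotides. At 1 kb, 1 read equalled 3.37, 4.38 and 4.60 FPKM in silk blastema, against 1.48, 2.47 and 1.81 FPKM with no device. The silk levels and those without a device therefore rest on few reads, and the part of depth in their separation was not tested. The lower one was cdk4.L, a partner of D-type cyclins, with 3.37, 0 and 4.5 FPKM with progesterone, 9.24, 2.01 and 6.30 FPKM with silk, and 10.2, 6.80 and 6.65 FPKM without a device (-1.98 ± 0.83 for progesterone against no device). One entry of the sliding clamp gene, pcna.L (gene50055), had 11.7, 11.3 and 17.5 FPKM with progesterone, 3.41, 8.89 and 0 FPKM with silk, and 1.5, 2.51 and 3.69 FPKM without a device. Its progesterone libraries lay above all others (2.01 ± 0.91 over no device). In a gene of 1 kb, near its estimated length of 985 nucleotides, a read was worth 1.05, 5.58 and 1.23 FPKM in progesterone blastema. Without a device a read was worth 1.48, 2.47 and 1.81 FPKM. The levels without a device and in progesterone library 2 therefore rest on few reads. The other pcna.L entry (gene6760) had 18.7, 0 and 14.2 FPKM with progesterone, 7.05, 4.60 and 14.4 FPKM with silk, and 3.11, 5.19 and 3.81 FPKM without a device, and its progesterone range covered the other groups. The proliferation marker mki67.L had 7.32, 7.72 and 10.1 FPKM with progesterone, 9.36, 4.07 and 11.6 FPKM with silk, and 5.63, 5.25 and 7.02 FPKM without a device, with progesterone just above no device and silk across both. Cyclin D2 did not show in blastema the order it had in stump: ccnd2.S had 33.9, 5.24 and 47.0 FPKM with progesterone, 27.2, 16.4 and 30.1 FPKM with silk, and 26.1, 26.96 and 25.6 FPKM without a device. Progesterone library 2, the shallowest of all, was the lowest there.

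Progesterone against silk in blastema gave 7 higher and 1 lower member at an unadjusted p under 0.05, where 4.87% and 0.77% of all genes were, and medians of 0.37 for the members and 0.33 for all genes. After scaling by the median of ratios both medians were 0.17. Whether a device acted differently in blastema and stump was tested as an interaction, and no member of 130 was called for either device; of all genes, 0.00241% were called lower for silk and 0% in the other cases. The lowest p-values were those of cdk6.L (-3.23 ± 0.79, limma adjusted p = 0.29) and ccna2.S (-3.32 ± 0.83, limma adjusted p = 0.299) for silk, both at 0 in silk blastema. For progesterone, ccnd2.S had -2.40 ± 0.95 (limma adjusted p = 0.911).

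In brain, the member sums ran from 300.3 to 311.9 FPKM with progesterone, 256.6 to 307.8 FPKM with silk and 300.4 to 316.1 FPKM without a device. At an unadjusted p under 0.05, no member of 68 was higher or lower with progesterone than without a device, where 1.53% and 1.37% of all genes were. With silk 2 were higher and 1 lower than without a device, where 0.979% and 3.73% of all genes were. Progesterone against silk gave 6 higher and 2 lower members, where 6.25% and 1.68% of all genes were. The lowest p in both silk comparisons was that of the cyclin D1 copy ccnd1.L, with 2.28, 2.36 and 2.27 FPKM with progesterone, 0, 0 and 0.480 FPKM with silk, and 2.14, 2 and 3.66 FPKM without a device. All silk libraries lay below all others, on 0, 0 and 1 estimated read, where a read was worth 1.37, 1.09 and 0.478 FPKM in the 3 silk libraries. The other brain libraries had 3 to 8 estimated reads of it. The difference of progesterone from silk was 1.54 ± 0.22 (limma adjusted p = 0.151), and without silk library 3 it was 1.72 and was called (limma adjusted p = 0.0378). The difference of silk from no device was -1.59 ± 0.25 (limma adjusted p = 0.391), and -1.77 without silk library 3 (limma adjusted p = 0.073). Without that library, only silk libraries 1 and 2 remain in the group, both at 0 estimated reads of ccnd1.L. The other copy, ccnd1.S, averaged 3.59 FPKM with progesterone, 3.66 FPKM with silk and 4.01 FPKM without a device. Its differences were 0.04 for progesterone against silk and -0.17 for silk against no device (limma adjusted p = 0.987 and 0.959). The replication gene gins1.S went the other way from ccnd1.L, with 0.510, 0.650 and 0.540 FPKM with progesterone, 3.28, 2.61 and 1.72 FPKM with silk, and 1.06, 0.760 and 0.560 FPKM without a device. Its silk libraries lay above all others (-1.15 ± 0.21 for progesterone against silk, limma adjusted p = 0.231). These levels rest on few reads, as gins1.S has an estimated length of 0.945 kb. In a gene of 1 kb a read was worth 1.55, 1.23 and 0.541 FPKM in the silk libraries. It was worth 0.481 to 0.612 FPKM with progesterone and 0.530 to 0.721 FPKM without a device. With the near-identical pair averaged, gins1.S passed the filter of 1 FPKM in 3 samples through its silk libraries alone. The filter thus favoured silk levels above the others and a low p-value for this gene.

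Other genes of the same processes were taken from a list of 100 symbols outside the naming rule, of which 93 were found, as 128 copies. None of them was called in any of the 9 treatment comparisons. Between tissues, over the mean of treatments, 19 were higher and 28 lower in brain than in blastema, 22 higher and 1 lower in brain than in stump, and 7 higher and none lower in blastema than in stump. The shares of all genes were 24.4% and 25.3%, 26.7% and 9.73%, and 6.6% and 1.03% in these comparisons. The thymidylate synthase gene tyms.L (-1.69 ± 0.37, limma adjusted p = 0.000976) and the centromeric histone gene cenpa.L (-1.56) were among those lower in brain than in blastema. The centromeric histone was also higher in blastema than in stump (1.81 ± 0.39, limma adjusted p = 0.0106), as was the mitotic transcription factor foxm1.S (1.05 ± 0.27, limma adjusted p = 0.0229). Genes higher in brain than in stump included the cytokinesis kinase cit.S (3.73 ± 0.29, limma adjusted p = 1.57e-09) and the single-strand binding subunit rpa1.L (1.46, limma adjusted p = 5.58e-05). Of 3 retinoblastoma family copies found, rbl1.L was lower in brain than in blastema (-0.78, limma adjusted p = 0.0218).

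The long and short copies of a gene did not always have the same tissue pattern. Both copies were in the list for 43 genes, or 86 of the 130 members, and the share of their summed FPKM in the long copy was described after the data had been seen. For ccnd2 it was 49.7% to 58.4% in the 8 brain samples with a median of 54.3%, against 0% to 48.8% in the 16 limb samples with a median of 25.2%. For mki67 the order was the opposite, with 21.6% to 56.0% in brain and a median of 36.0%, against 47.7% to 82.4% in limb and a median of 69.5%. For cdkn2d it was 7.80% to 40.1% in brain and 33.1% to 79.1% in limb, with medians of 25.8% and 55.1%. Only for ccnd2 did brain and limb not overlap, among 9 pairs with enough reads to describe. Reads were 40 nucleotides long, so part of the reads of one copy could have been given to the other.

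**Figure D5:**
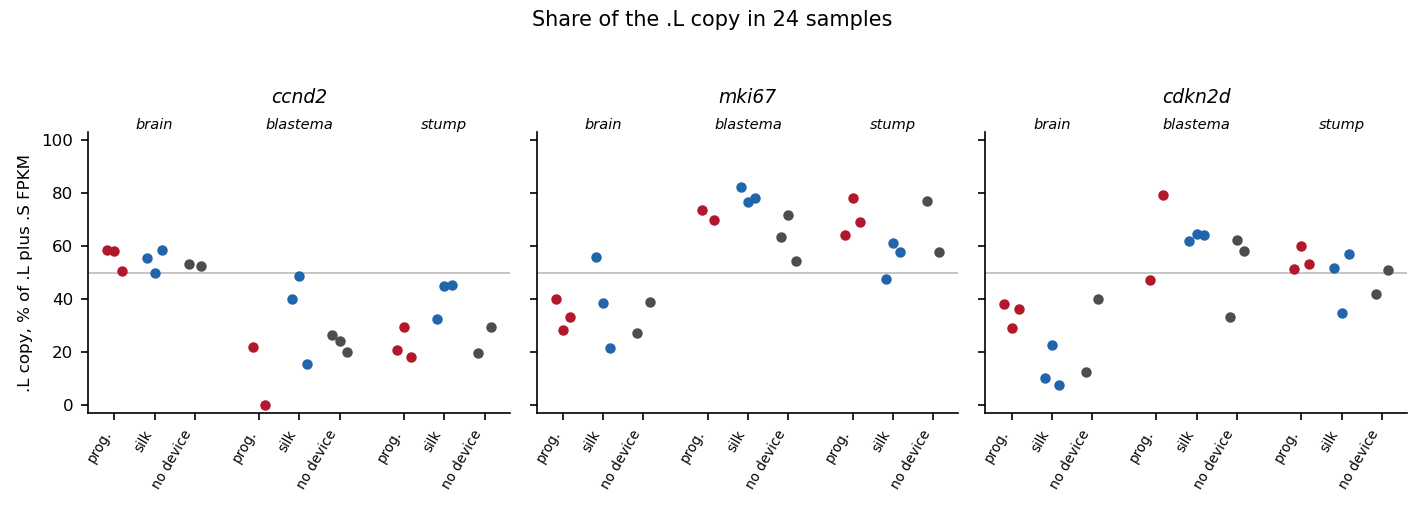
Share of the summed FPKM of a gene that was in its .L copy, in percent, for ccnd2, mki67 and cdkn2d in the 24 samples by tissue; points are samples. Brain lies above the limb for ccnd2, with a median of 54.3% against 25.2%, and mostly below it for mki67 and cdkn2d.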

How the data were processed

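Total RNA was depleted of ribosomal RNA and sequenced for 40 nucleotides, per the labels' protocols. FastQC, Trimmomatic, STAR, RSEM and edgeR are named in the submitters' processing notes, with no version; build, gene models and strandedness are not given in the sources. The deposited tables hold FPKM per library and gene; the unit was inferred, as FPKM times estimated length sums to about the same total in every library. The authors also deposited log2 fold changes, p-values with q-values, and an average CPM signal per gene. Whole reads could not be recovered (59.8% to 66.6% of low values lay within 0.1 of a whole read), so no count test was run; the near-identical libraries were found on, and the voom alternative used, reads estimated from FPKM, length and depth. Here limma 3.58.1 in R 4.3.3 was fitted to log2(FPKM + 1) of genes with at least 1 FPKM in 3 samples, without a replicate block, within each tissue for treatments and over all 9 groups for tissues, with Benjamini-Hochberg adjustment over all genes. The log2(FPKM + 1) scale understates changes of low genes. Named genes are called members (at most 20 by p; the 6 of lowest p where fewer pass) and a panel of copies given by levels. The members and gene lists were chosen with earlier results of these data known. Alternatives covered the pseudocount, filters, scaling, voom weights, near-identical libraries kept apart, a replicate block and leaving out each sample.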

Additional observations from a re-analysis of the deposited data

How the results depend on the processing

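Counts of called members depended most on voom weights, which gave 15 for silk and 4 for progesterone against no device in stump, 57, 23 and 35 without a device for blastema against stump, brain against stump and brain against blastema, 40, 51 and 76 for the same tissue pairs over the mean of treatments, 0 for silk blastema against stump and 1 for the silk interaction. The share of all genes called moves with the setting too: with voom in stump, 23.4% of all genes were higher with silk and 4.11% with progesterone. Where no share of all genes is given, a count here shows only how the calls depend on the setting. A filter of 10 estimated reads gave 2, 9 and 8 over the mean of treatments, and 2 without a device and 0 with silk for blastema against stump. A pseudocount of 0.1 gave 2 for silk against no device in blastema, 1 for the silk interaction, and 1, 1 and 0 for the 3 tissue pairs without a device; one of 5 gave 1 for silk blastema against stump, and 5 and 3 for brain against stump and blastema without a device. No filter gave 1 for blastema against stump without a device. Median-of-ratios scaling gave 4 for silk and 2 over the mean of treatments for blastema against stump; in brain against stump it gave 5 higher and 19 lower members in place of 9 and 9, and medians of -0.37 for members and -0.13 for all genes in place of -0.17 and 0.08. Near-identical libraries kept apart gave 1 for progesterone against no device in stump, 14, 7 and 12 for the tissue pairs without a device and 9 for blastema against stump over the mean of treatments. The replicate block gave 9, 7 and 11 without a device and 1 for silk blastema against stump. Correlations between same-numbered samples were above 0.1 in 5 of 27 cases across treatments and 1 of 27 across tissues. Such correlations cannot decide whether same-numbered libraries came from the same frogs. Leaving out each sample in turn gave 25 to 46 called members for brain against blastema, 10 to 25 for brain against stump and 0 to 14 for blastema against stump over the mean of treatments (0 without progesterone blastema 2 or the stump pair without a device, 14 without the progesterone blastema pair), 1 to 4 with silk and 0 to 11 with progesterone for blastema against stump, 0 to 2 and 0 to 3 for brain against blastema and stump without a device, 0 to 1 for progesterone against silk in brain, and 0 elsewhere. The interaction of birc5.1.S with progesterone reversed under voom, to -0.62 from 2.28; the cause of these changes was not tested. Among single genes, 2057 settings kept the direction and the side of the threshold, 88 passed it and 127 no longer did. Depth limits most members, as 110 of 130 averaged under 10 estimated reads.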
